A study of Mus musculus with 5 samples.

Results

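Mature B cells of the bone marrow (BM) were taken as the cells that carried at least 1 unique molecular identifier (UMI, 1 counted RNA molecule) of Cd79a, at least 1 of Ms4a1, and at least 2 of Ighd and Fcer2a together. Of 21520 cells kept from 3 whole BM libraries, 609 met this rule and are called members below, with 237 of 7104 in naive BM, 367 of 6126 on day 2 (D2) after cyclophosphamide (CTX), and 5 of 8290 on day 7 (D7). A barcode was kept as a cell from 200 detected genes up, with mitochondrial UMIs under 20%. With 5 cells on day 7, comparisons between conditions were made mainly between D2 and naive BM. The members were thus chosen by their measured UMIs of Cd79a, Ms4a1, Ighd and Fcer2a, so the shares of cells and the levels of these 4 genes are descriptions and carry no test.

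The study followed marrow myeloid cells after CTX, an alkylating drug that crosslinks DNA and depletes dividing cells. The mice were BALB/c, between 4 and 8 weeks old. Naive mice were untreated, and the D2 and D7 groups received 1 dose of CTX at 150 mg/kg and were sampled 2 and 7 days later. BM of 3 mice was pooled in equal cell numbers into 1 library per condition after lysis of red cells and removal of dead cells. The 2 further libraries of the series, CD11b+Ly6Chi monocytes sorted from naive and CTX-treated BM, held 1 of 1891 and 0 of 2564 kept cells that met the rule, where a count of 0 allows a share of up to 0.117%. With 1 pooled library per condition there is no replicate, so no test between conditions was possible, and all intervals cover counting error at 95% only, not the spread between mice.

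A B cell leaves the precursor stages once it carries surface IgM, and it gains IgD and the low-affinity IgE receptor CD23 as it matures. IgM and IgD come from 1 heavy chain transcript by alternative splicing, so that a mature follicular cell shows more IgD and less IgM than an immature one. Mature B cells circulate through spleen, lymph nodes and blood and return to the marrow, where they lie around sinusoids. They present antigen on MHC class II, whose genes depend on the transactivator CIITA, and they are among the most sensitive cells to DNA damage, which acts through p53.

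Cells that met the rule were a larger share of the D2 library than of the naive library and were nearly missing from the D7 library. The larger D2 share lay in members rich in Ighm, the IgM heavy chain, which also carried more RNA of the immature B cell genes Cd93 and Vpreb3. Members with at least 50 Ighm UMIs per 10000 went from 0.985% of kept cells (70 cells) to 4.23% (259 cells), a log2 ratio of 2.10 (1.72 to 2.50), while those below that value went from 2.35% (167 cells) to 1.76% (108 cells), at -0.42 (-0.78 to -0.057). With the value set at 40 or 60, the ratio of the lower range was -0.82 (-1.25 to -0.39) or -0.20 (-0.53 to 0.12), and that of the upper range 1.85 or 2.40. These values of Ighm were chosen after the data were seen. The ranges are cut on Ighm itself, whose median over members was 31.8 per 10000 UMIs in naive BM and 71.7 on D2. More Ighm within cells cannot be told apart here from more Ighm-rich cells, and neither was tested. Over both ranges, members made up 3.34% (Clopper-Pearson interval 2.93 to 3.78) of kept cells in naive BM, 5.99% (5.41 to 6.61) on D2 and 0.0603% (0.0196 to 0.141) on D7. Set against naive BM, this was a 1.80-fold larger share on D2, a log2 ratio of 0.84 (0.61 to 1.09), and a log2 ratio of -5.79 (-7.43 to -4.55) on D7. These are shares of a library and not numbers of cells in the marrow. Of the 5 D7 members, 4 were called doublets, as described below. Cells with Cd79a, a chain of the B cell receptor, made up 30.9% of the naive, 30.8% of the D2 and 3.32% of the D7 library. Cells with Cd79a but no Ms4a1 (CD20), a range that takes in the earlier precursors, went from 22.3% to 10.2% and 3.09%. Cells with Ms4a1 but with 0 or 1 UMI of Ighd and Fcer2a, a range that takes in immature B cells and mature ones of low depth, went from 5.28% to 14.7% and 0.169%.

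Against these neighbours, members took a smaller part of the Ms4a1-positive cells on D2 than in naive BM. They were 38.7% (34.8 to 42.7) of 612 such cells in naive BM, 29.0% (26.5 to 31.6) of 1265 on D2, and 5 of 19 on D7. T cells, taken by at least 2 UMIs of Cd3e, Cd3g and Trac and no Cd79a, moved in the same directions as members, from 2.25% to 5.27% and 0.205% of kept cells. Depth acts on a rule that counts UMIs. After each cell was thinned to 1000 UMIs, the share of members was 1.23% in naive BM, 2.13% on D2 and 0.0243% on D7, with 285, 599 and 73 shallower cells left out. At 2000 UMIs the shares were 2.27%, 5.17% and 0.0373%, so the order of the 3 libraries was kept at both depths.

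**Figure D1:**
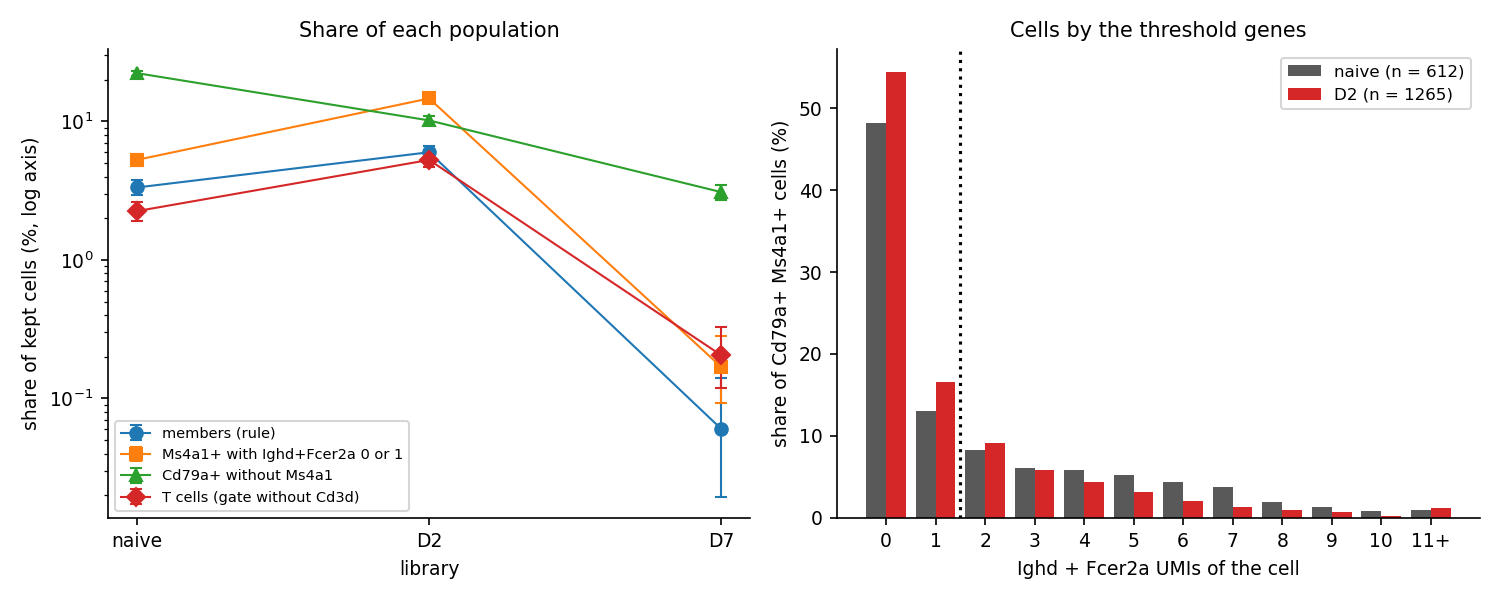
Left, share of kept cells (percent, log axis) of members and 3 other populations in the naive, D2 and D7 libraries, with exact 95% intervals of counting error; members stand at 3.34%, 5.99% and 0.0603%. Right, share of Cd79a+ Ms4a1+ cells by their Ighd plus Fcer2a UMIs in naive (n = 612) and D2 (n = 1265), with the dotted line at the limit of the rule: the bars fall off without a gap at the line.

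The limit of the rule cuts through a continuous range. In naive BM, 295 Ms4a1-positive cells held no UMI of Ighd or Fcer2a, 80 held 1, 51 held 2, and 37 held 3. On D2 these counts were 689, 209, 115 and 74. The 5 cells of D7 held between 3 and 7 UMIs, with 2 cells at 3. Members with both genes were 58.2% in naive BM and 54.5% on D2. Those with Ighd and no Fcer2a went from 38.0% to 28.3%, and those with Fcer2a and no Ighd from 3.80% (9 cells; interval 1.75 to 7.09) to 17.2% (63 cells; 13.5 to 21.4).

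The median member held 2428 UMIs in naive BM, 2729 on D2 and 4281 on D7, and the members together held 796726, 1239838 and 21827 UMIs. Levels below are UMIs of a gene summed over the members of a library, per 1000000 UMIs of that sum (CPM). Some members carried RNA of other cell types. At least 5% of UMIs came from fixed lists of neutrophil, erythroid, T and NK, monocyte and plasmacytoid genes in 15 naive (6.33%) and 30 D2 members (8.17%), with none of the 5 on D7. These mixed cells had medians of 7640 and 7050.5 UMIs, against 2374 and 2657 for the others. Scrublet scores, with 0.8% of cells called doublets for every 1000 cells kept, marked 18 naive and 33 D2 members, among them 10 of the 15 and 27 of the 30 mixed cells, and 4 of the 5 D7 members, none of which was mixed. S100a8, a neutrophil gene, had a UMI in 89.5% of naive and 98.6% of D2 members. Between 6 and 15 barcodes were shared between any 2 of the 3 BM libraries, none of them a member. Results that rest on the mixed cells are given with and without them.

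Fcmr (chr1:130865669-130880791, plus strand, GRCm38), the Fc receptor for IgM and the one marker of the set outside the rule, stood at 684 CPM (545 UMIs, 193 of 237 cells) in naive members, 542 CPM (261 of 367 cells) on D2 and 1100 CPM (all 5 cells) on D7. In Ms4a1-positive cells below the limit it stood at 259, 308 and 58.5 CPM. Neutrophils, which should lack it, had an Fcmr UMI in 0.0625% of cells in naive BM and 0.213% on D2. Cr2, the complement receptor CD21, was at 208 CPM in naive members and 194 on D2, against 23.1 and 41.0 below the limit. Members were above the cells below the limit in both libraries for both genes. Cd3e, a chain of the T cell receptor complex, had a UMI in 0 of 237 naive members and 1 of 367 on D2.

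Of 23 mature B cell genes compared with the cells below the limit in naive BM, 7 were higher in members by 1 log2 unit or more, none was lower by as much, and 5 lay below 0, down to -0.87. Among all genes compared, 5.19% were higher by as much in naive BM and 1.22% on D2. On D2, 1 of the 23 was higher, 8 lay below 0, and the median was 0.09. Of the homing genes, 5 of 11 were higher in naive BM and 1 of 10 on D2. In naive BM, Ccr7 (a chemokine receptor for lymph node homing) was at 127 against 38.2 CPM, Cd55 (a brake on complement) at 527 against 98.3, and Gpr183 (an oxysterol receptor that guides follicular cells) at 76.6 against 12.7. Cd79b, a chain of the B cell receptor, was at 1746 and 1624 CPM. Genes of earlier stages were lower in members: Vpreb3, a pre-B cell receptor protein, was at 585 against 1594 CPM, and Cd93, a marker of immature B cells, at 57.7 against 147. In naive BM these named genes were ordered as the label has it. Yet Cd93 had a UMI in 10.5% of naive and 20.2% of D2 members, shares not matched for depth, beside 2.81% of naive neutrophils. After thinning, 4.22% of naive members had one. The level of Cd93 without mixed members had a D2 over naive log2 ratio of 0.63 (0.11 to 1.17). A part of the members therefore carried a marker of immature cells. The summed level of Cd93 without mixed members was higher on D2, while the shares of cells with it are not compared here at equal depth. Recirculating cells could not be told apart from late immature ones by these genes. Of the whole list of 18 precursor genes, 4 were above and 14 below 0 on D2 over naive. None was higher by 1 log2 unit or more and 5 were lower, beside 3.08% and 2.76% of all genes with a UMI.

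**Figure D2:**
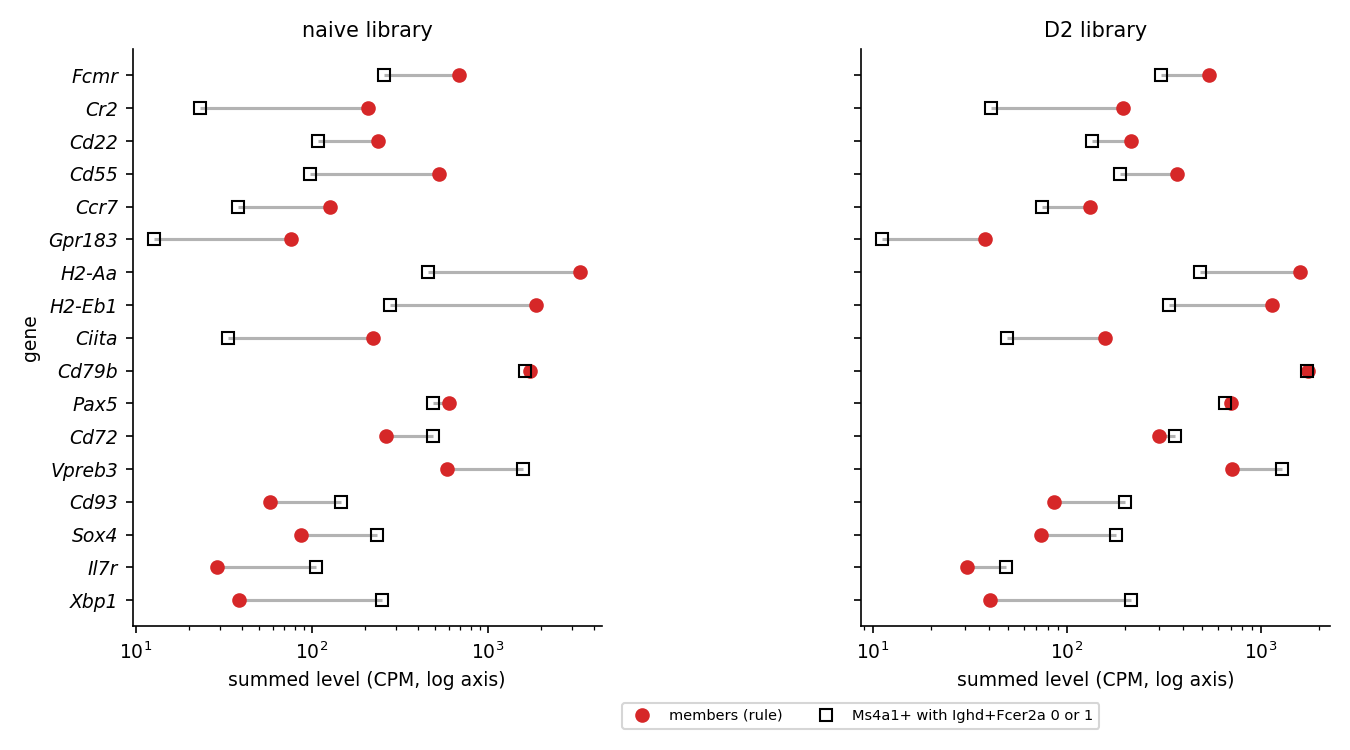
Summed level (CPM, log axis) of marker genes in members (filled circles) and in Ms4a1-positive cells with 0 or 1 UMI of Ighd and Fcer2a (open squares), in the naive and D2 libraries. Fcmr to Ciita lie to the right in members, with Fcmr at 684 against 259 CPM in naive BM, and Vpreb3 to Xbp1 lie to the left.

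Set against the cells below the limit, members of naive BM had 172 of 3317 genes higher by 1 log2 unit or more and 81 lower (5.19% and 2.44%), and 42 and 63 of 3449 on D2 (1.22% and 1.83%). A gene was compared when it had at least 50 UMIs over both sums and at least 50 CPM in 1 of them, and 5 CPM were added to both levels. Of 2976 genes compared in both libraries, 37 were higher in both and 34 lower in both. The 10 with the largest ratio in both libraries were Fcer2a, itself in the rule, Cr2, Gpr174, Zfp318, H2-Eb1, H2-Aa, Trim7, Rapgef4, Ciita and Gm8369. Zfp318 encodes the factor that lets IgD be made from the heavy chain transcript, and it stood at 247 CPM in naive members and 38.2 below the limit, and at 217 and 58.9 on D2. Gpr174, a lysophosphatidylserine receptor of lymphocytes, stood at 80.3 and 5.20 in naive BM and at 52.4 and 9.73 on D2. At the other end stood Jchain, Tmem176a, Pon3, Slpi, Xbp1, Rag1, Prdx4, Atp1b1, Creld2 and Ly6c1. Jchain (which joins IgM and IgA units), Xbp1 (the secretory factor of plasma cells), Prdx4 and Creld2 serve antibody secretion, and Rag1 cuts immunoglobulin gene segments in precursors. The cells below the limit held 10 naive and 17 D2 cells with at least 10% immunoglobulin UMIs, as in plasma cells, and no member reached that share.

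MHC class II genes were higher in members than in the cells below the limit. Of 11 genes, 10 had a ratio over the cells below the limit of 1 log2 unit or more, with a median of 2.44, against 5.19% of all genes compared. On D2, 6 of 10 were, with a median of 1.25. The list of homing genes had medians of 0.90 and 0.15, and the list of precursor genes -1.32 and -1.17. The gap between members and cells below the limit was thus smaller on D2 than in naive BM for class II and homing genes.

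Between D2 and naive members, 105 of 3496 genes differed upward by 1 log2 unit or more (3.0%) and 70 downward (2.00%). The median over all genes compared was 0.13, so a ratio near that value marks a gene that moved with the rest. When the ratios were centred on that median, 64 genes were higher and 91 lower. Without the mixed members, 86 of 3570 were higher (2.41%) and 55 lower (1.54%). Of 24 genes of B cell identity, 23 passed the filter on low genes and none lay 1 log2 unit apart, with 12 above and 11 below 0, from -0.50 to 0.80, and a median of 0.02. Pax5 and Ebf1, the factors that hold B cell identity, had ratios of 0.22 (0.05 to 0.38) and -0.25 (-0.35 to -0.15). Spib, an Ets factor of mature B cells, was the highest of the list at 0.80 (0.59 to 1.05).

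**Figure D3:**
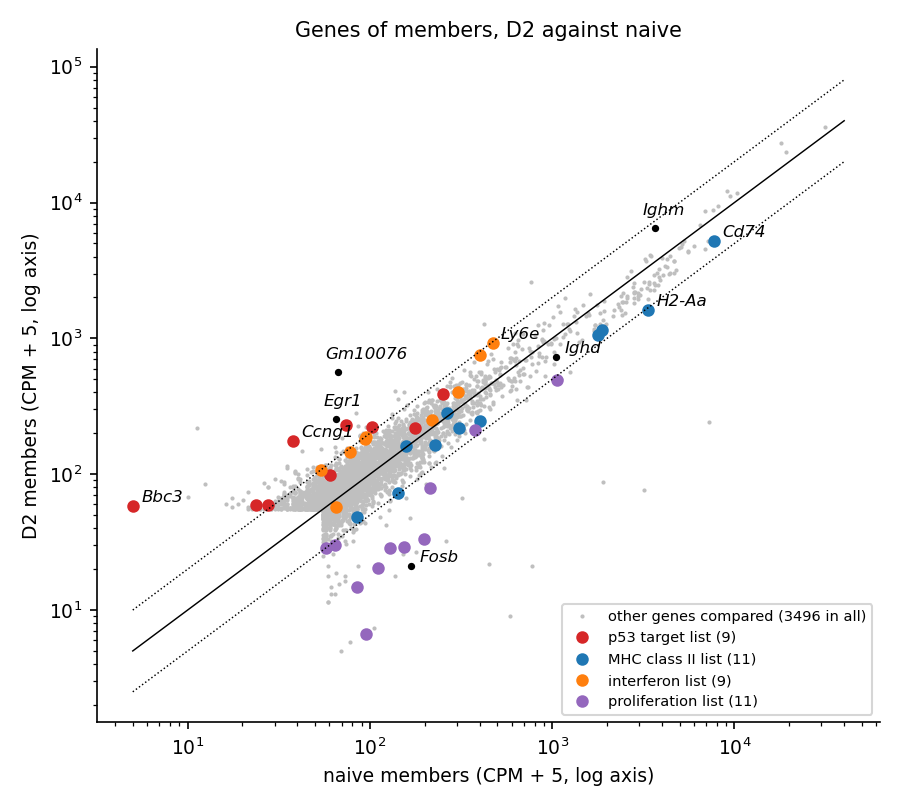
Levels of the 3496 genes compared in members (CPM + 5, log axes), D2 against naive, with the line of equality and dotted lines 1 log2 unit away. Most genes lie between the dotted lines, the p53 targets Bbc3 and Ccng1 lie above them, 10 of 11 proliferation genes lie below, and most MHC class II genes lie below the line of equality.

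Targets of p53 were higher in D2 than in naive members. Over the whole list of 26 genes, summed UMIs went from 882 CPM in naive to 1813 on D2 and 733 on D7, a log2 ratio of 1.04 (0.92 to 1.16) on D2. Of the 24 genes with any UMI, 12 had a ratio of 1 log2 unit or more and none of -1 or less, against 3.08% and 2.76% of the 13327 genes with any UMI. Of these, 9 passed the filter on low genes, some of them only through their D2 level. Without mixed members the summed level went from 900 to 1836 CPM.

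Bbc3 (chr7:16308393-16318205, plus strand, GRCm38), which encodes the pro-death BCL2 family member PUMA, had 0 UMIs in 237 naive members and 66 UMIs in 51 of 367 D2 members (53.2 CPM). Against the 3 UMIs that a count of 0 allows over the naive members, it was 14.1-fold higher on D2. The lower end of the interval of its log2 ratio was 3.48. After thinning to 1000 UMIs, 6.56% of D2 members had a Bbc3 UMI and none of the naive, beside 1.42% and 0.843% of neutrophils. None of the 5 D7 cells held a UMI. Ccng1 (chr11:40748552-40755311, minus strand), a cyclin that p53 switches on, went from 32.6 CPM (25 cells) to 169 CPM (123 cells), a log2 ratio of 2.21 (1.78 to 3.02), and D7 had 1 UMI. Trp53inp1, a stress protein that acts with p53, went from 69.0 to 223 CPM, at 1.63 (1.27 to 2.14). Bax, which opens the mitochondrial membrane in apoptosis, went from 97.9 to 217 CPM, at 1.11 (0.78 to 1.53), and Mdm2, the ligase that limits p53, from 55.2 to 93.6 CPM, at 0.71 (0.25 to 1.30). Each ratio stood above the median of all genes. Pmaip1 (NOXA), another death gene of the list, was at 17.6 and 12.1 CPM, with an interval from -1.69 to 0.62.

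The same list was also measured in other lymphocytes. In the cells below the limit, 4.45% of 3397 genes lay at least 1 log2 unit above and 3.92% below naive (3.18% and 3.27% of 3454 without mixed cells), and in T cells 3.93% and 3.0% of 3334. Over the whole p53 list, summed UMIs of the cells below the limit went from 1174 CPM in naive to 1889 on D2. The genes compared one by one had to reach 50 CPM in 1 of the libraries. A gene could thus enter through its D2 level alone, and the counts carry no test. In the cells below the limit, 1 of 7 genes of the list had a ratio of 1 log2 unit or more. There, 1 lay below 0, at -0.31, and the median was 0.87. In T cells 5 of 11 had such a ratio and 2 lay below 0, down to -0.62, with a median of 0.95. Bbc3 was higher there too: it went from 3.47 to 30.4 CPM in the cells below the limit, under the level at which a gene was counted among the 7, and from 16.8 to 54.5 CPM in T cells, where the D2 level was close to the 53.2 CPM of members. In the cells below the limit, Ccng1 had a ratio of 2.25 and Bax 0.78, and in T cells 1.68 and 1.20. Trp53inp1 differed between members and cells below the limit, by 0.71 log2 units (approximate interval 0.24 to 1.18) in its D2 over naive ratio. The difference for Ccng1 was -0.07 (-0.79 to 0.66) and for Bax 0.34 (-0.10 to 0.78). Within the ranges of Ighm described below, without mixed members, Trp53inp1 was at 1.51 (0.63 to 2.42) in the lower and 1.01 (0.46 to 1.60) in the upper. Over both ranges it was at 1.66. The upper range held more of its RNA, at 139 against 44.0 CPM in naive BM and 279 against 125 on D2. The part of the ranges in the difference of 0.71 was not tested. The share of neutrophils with a Ccng1 UMI was also higher, going from 1.72% to 9.87% after thinning, against 3.38% and 14.5% of members. Among survival genes, Bcl2l11 (BIM, a death gene) went from 17.6 to 52.4 CPM, at 1.35 (0.73 to 2.53), and Mcl1, which opposes it, from 457 to 764 CPM, at 0.74 (0.57 to 0.92). Bcl2 was at 128 and 124 CPM. The receptor for the survival cytokine BAFF, Tnfrsf13c, was at 348 and 380 CPM, and its relative Tnfrsf13b at 200 and 308, with a ratio of 0.61 (0.36 to 0.90).

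Genes of the MHC class II pathway were lower in D2 than in naive members. The whole list went from 16294 CPM in naive to 10196 on D2, a log2 ratio of -0.68 (-0.71 to -0.64), and stood at 22266 CPM in the 5 cells of D7. Of 11 genes, all passed the filter, 9 were below 0, and 1 was at least 1 log2 unit lower, beside a background of 2.00%. H2-Aa, the class II alpha chain of I-A, went from 3357 CPM (2675 UMIs, 219 of 237 cells) to 1603 CPM (1988 UMIs, 290 of 367 cells), at -1.06 (-1.15 to -0.98), and D7 had 5085 CPM over 5 of 5 cells. H2-Ab1, its beta chain, went from 1774 to 1062 CPM, and H2-Eb1, the I-E beta chain, from 1874 to 1148. Cd74, the invariant chain that guides class II to endosomes, went from 7733 to 5226 CPM, and Ciita, the transactivator of the set, from 222 to 158. The peptide loading genes H2-DMa, H2-DMb1 and H2-DMb2 and the modulator H2-Oa lay between -0.98 and -0.50. H2-Ob, the partner of H2-Oa, at 0.02 (-0.31 to 0.36), and Ctss, a protease that trims the invariant chain, at 0.08 (-0.17 to 0.34), had intervals that included 0.

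In the cells below the limit the class II genes did not move this way. There, H2-Aa was at 458 and 485 CPM and Cd74 at 1881 and 2716. The D2 over naive ratio was lower in members than in these cells, with differences of -1.15 log2 units (-1.30 to -0.999) for H2-Aa, -0.996 (-1.18 to -0.81) for H2-Eb1, -1.10 (-1.17 to -1.02) for Cd74 and -1.04 (-1.57 to -0.52) for Ciita. The intervals of these differences rest on counts alone.

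The promoters of 2 class II genes that differed between D2 and naive members are shown because class II genes share an element, the Y box, that is read by the factor NF-Y. Its core is CCAAT on either strand (CCAAT or ATTGG). Of the 11 genes, 8 had an entry in the RefSeq promoter set (250 bases before to 50 after the start, GRCm38.p6), with 9 promoters, as H2-DMa has 2. The motif stood on either strand in 7 of the 9 promoters (77.8%), and in 37.4% of all 32851 promoters. In capitals is the motif, which starts 48 bases before the start site in H2-Aa, and 59 and 35 bases before it in H2-Eb1.
H2-Aa (chr17:34287774-34288073, minus strand): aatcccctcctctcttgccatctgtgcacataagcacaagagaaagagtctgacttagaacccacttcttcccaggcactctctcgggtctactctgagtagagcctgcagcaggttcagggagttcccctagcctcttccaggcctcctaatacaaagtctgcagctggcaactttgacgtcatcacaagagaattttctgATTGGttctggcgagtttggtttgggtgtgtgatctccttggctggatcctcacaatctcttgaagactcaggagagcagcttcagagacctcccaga
H2-Eb1 (chr17:34305617-34305916, plus strand): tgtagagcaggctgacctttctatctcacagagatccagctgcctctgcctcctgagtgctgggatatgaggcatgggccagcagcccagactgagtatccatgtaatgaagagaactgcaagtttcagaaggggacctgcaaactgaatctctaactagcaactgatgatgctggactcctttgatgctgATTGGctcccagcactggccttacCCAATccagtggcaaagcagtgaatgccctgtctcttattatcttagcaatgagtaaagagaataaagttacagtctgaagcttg
Of the 7 genes with the motif, counting H2-DMa by 1 of its 2 promoters, 6 were lower on D2 and H2-Ob had an interval that included 0. Ctss, the 1 gene without it, had such an interval too. A match is a description of the letters and not a site in use.

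Interferon-response genes were higher in D2 members. The list of 27 genes went from 1895 to 3233 CPM, with 1558 CPM on D7, a log2 ratio of 0.77 (0.68 to 0.86) on D2. Of the 27, 24 were above 0, beside 7495 of all 13327 genes with a UMI. With any UMI, 3 were at least 1 log2 unit higher and 1 lower, beside 3.08% and 2.76% of all genes. Of the 9 that passed the filter on low genes, none reached 1 log2 unit. Ly6e, a surface protein induced by interferon, went from 466 CPM (131 of 237 cells) to 919 CPM (327 of 367 cells), at 0.97 (0.81 to 1.15). Ifi27l2a was at 399 and 744 CPM with the mixed members, a ratio of 0.89, and had a ratio of 0.49 without them. The cells below the limit had a median of 0.91 over 10 genes of the list and T cells 0.34 over 10, beside 0.89 over 9 in members.

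Heavy chain transcripts differed between D2 and naive members. Ighm (chr12:113418558-113422730, minus strand) stood at 3661 CPM in naive members, 6514 on D2 and 3070 on D7, with a D2 ratio of 0.83 (0.77 to 0.89). In single cells the median was 8 UMIs (quartiles 5 and 16, highest 95) in naive BM, 20 (13 and 29, highest 86) on D2, and 9 on D7, where the 5 cells held between 8 and 31. Per 10000 UMIs of the cell the medians were 31.8 and 71.7, while the ranges overlapped. Ighd, used by the rule, was at 1049 and 723 CPM, and Fcer2a, also used, at 378 and 523. Igkc, the kappa constant chain, was at 6456 and 6839 CPM. More Igkc than Iglc1, Iglc2 and Iglc3 together was seen in 79.7% of naive members (74.1 to 84.7) and 76.3% on D2 (71.6 to 80.6). Both chains had a UMI in 95.8% and 96.7%. Few cells with at least 10 light chain UMIs had 1 chain at 90% or more of them. In these, the chain was Igkc in 16 of 22 naive members (72.7%, 49.8 to 89.3) and 24 of 46 on D2 (52.2%, 36.9 to 67.1). The kappa share thus depended on the measure. Class-switched chains were near the floor: Ighg1 had 12 UMIs in naive members and 13 on D2, and Igha 17 and 24.

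**Figure D4:**
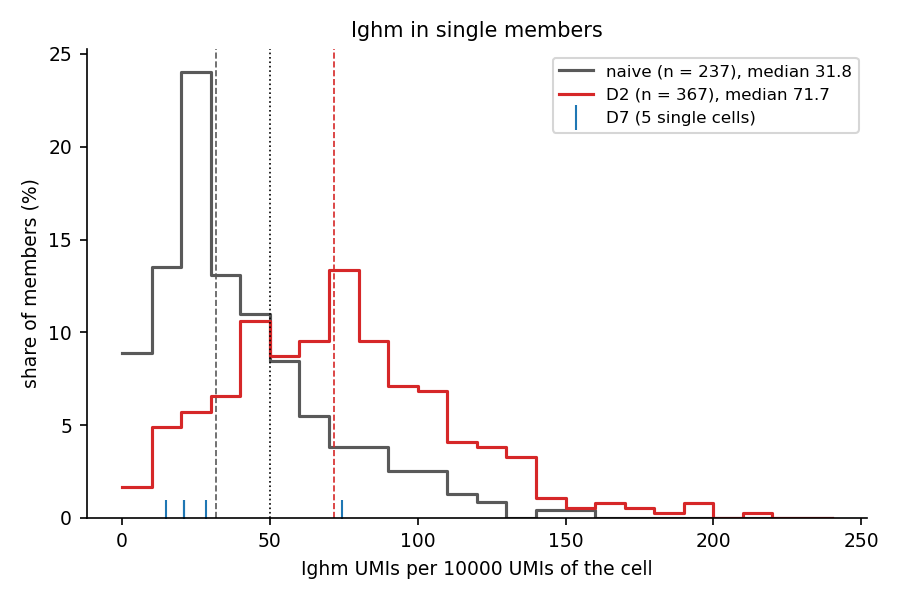
Share of members (percent) by Ighm UMIs per 10000 UMIs of the cell, in naive (n = 237) and D2 (n = 367), with medians of 31.8 and 71.7 as dashed lines and the value of 50 as a dotted line; ticks mark the 5 D7 cells, 2 of which share the mark near 21.0. The D2 cells lie further right and the distributions overlap.

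Members were also described in 2 ranges of Ighm, below 50 UMIs per 10000 or at least 50, a value chosen after the distribution had been seen. It marks ranges and not cell types, and 46 naive and 71 D2 members lay within 10 of it. Members in the upper range were 29.5% (70 cells; 23.8 to 35.8) in naive BM, 70.6% (259 cells; 65.6 to 75.2) on D2 and 1 of 5 on D7. Levels in the ranges leave out the mixed members. The upper range carried more of the genes of earlier stages: Cd93 was at 139 CPM in naive BM and 138 on D2, against 32.4 and 8.35 in the lower range, and Vpreb3 was at 1507 and 971 against 245 and 271. Cr2 was at 134 and 178 CPM in the upper range and at 303 and 368 in the lower. Fcer2a, used by the rule, was at 282 CPM in naive BM and 647 on D2 in the upper range, and at 507 and 543 in the lower.

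The lower class II level on D2 was seen in both ranges and was smaller in each than over all members. In the lower range the list went from 21488 to 16096 CPM, at -0.42 (-0.47 to -0.36), and in the upper range from 13402 to 10569, at -0.34 (-0.40 to -0.28), against -0.65 (-0.69 to -0.62) over all members without mixed cells. A larger part of D2 members thus lay in the range with less class II. For H2-Aa the ratios were -0.60 in the lower range, -0.68 in the upper and -1.04 over both. The p53 list was higher on D2 in both ranges, at 1.28 (1.08 to 1.49) in the lower and 0.73 (0.53 to 0.93) in the upper. Bbc3 had 15 UMIs in the lower and 42 in the upper range on D2, and none in either range in naive BM. The ratio of Bax was 1.59 (0.97 to 2.23) in the lower range, and in the upper it was 0.47, with an interval that included 0 (-0.06 to 1.04), as did that of Mdm2 (-0.49 to 1.26). Cd55, which was at -0.46 over all members, had intervals that included 0 within both ranges. Spib was at 0.78 (0.30 to 1.25) in the lower range and at 0.14 (-0.14 to 0.43) in the upper. The interferon list was at 0.60 (0.45 to 0.75) in the lower range and at 0.40 (0.27 to 0.54) in the upper. Over all members without mixed cells it was at 0.64. Ly6e was at 1.06 (0.77 to 1.36) in the lower range and at 0.55 (0.31 to 0.81) in the upper.

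Early response genes, which cells switch on within minutes of stimulation or handling, did not move together. The list of 25 genes had 10 above and 15 below 0. Fosb, an AP-1 subunit, went from 163 CPM (87 of 237 cells) to 16.1 CPM (17 of 367 cells), at -2.99 (-4.10 to -2.65), and its 5 highest cells held 17.7% of its naive UMIs. Jun and Jund, partners in AP-1, were at -0.92 (-1.32 to -0.60) and -0.79 (-0.95 to -0.64). Cd69, an activation marker that also holds lymphocytes in tissue, went from 153 to 61.3 CPM, at -1.25 (-1.75 to -0.90), and the 5 D7 cells had 8 UMIs. Egr1, a factor switched on by receptor signals, went the other way, from 60.3 CPM (48 UMIs, 21 cells) to 252 CPM (312 UMIs, 60 cells), at 1.98 (1.62 to 2.53), and 11 D2 cells held at least 10 UMIs, while no naive cell did. In the lower range of Ighm its ratio was 0.85 (-0.0083 to 1.71), with 25 UMIs in each library, and in the upper 2.01 (1.35 to 2.74). Egr1 was also higher on D2 in T cells, at 1.48, and in cells below the limit, at 0.72. Fosb was lower in both ranges, at -2.64 and -3.14. It was also lower in cells below the limit, at -2.03, while its ratio in T cells was -0.08 (-0.61 to 0.45). The time from marrow collection to capture is not given in the sources used here, and its part in these genes was not tested.

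In homing genes, the list of 14 had 7 genes above and 7 below 0. Beside Cd69, which is in both lists, Ccr6, a receptor for the chemokine CCL20, was lower on D2, at 75.3 and 32.3 CPM (-1.11, -1.84 to -0.62). Itgb7, an integrin chain for entry into gut tissue, at 69.0 and 33.9 CPM, and Gpr183, at 76.6 and 37.9, both had ratios of -0.93. Within the ranges of Ighm these 3 had intervals that included 0: Ccr6 was at -0.58 (-1.48 to 0.25) in the lower range and -0.85 (-1.93 to 0.29) in the upper, Itgb7 at -0.22 (-1.04 to 0.57) and -0.54 (-1.90 to 0.99), and Gpr183 at -0.38 (-1.21 to 0.40) and -0.35 (-1.45 to 0.87). Cd69 was lower in both, at -1.31 (-2.11 to -0.58) and -1.09 (-1.74 to -0.42). Cxcr4, the receptor that retains B cells in marrow through CXCL12, was at 176 and 210 CPM (0.25, -0.05 to 0.56), S1pr1, which leads cells out to blood, at 154 and 162, and Itga4, which binds VCAM1 on marrow stroma, at 159 and 228 (0.50, 0.21 to 0.83). In B cell receptor signalling, 14 of 18 genes were above 0, beside 7495 of all 13327 genes with a UMI, and none reached 1 log2 unit. Syk was at 348 and 534 CPM and Ptpn6, a phosphatase that restrains the receptor, at 350 and 559.

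The 10 genes with the largest ratios on D2, outside immunoglobulin, haemoglobin, mitochondrial and other-cell-type genes, were Gm5483, Bbc3, Gm10076, Ifitm1, Gm42047, Ccng1, Egr1, Cxcl2, Bhlhe41 and Exoc4. Bhlhe41, a repressor known from B-1 cells, went from 9 UMIs in 8 cells to 69 UMIs in 58 cells, at 1.90 (1.29 to 3.49), and was near 0 in neutrophils (0.0568 and 0.723 CPM). In the cells below the limit it also went up, from 26.6 to 63.7 CPM, with a ratio of 1.12 (0.79 to 1.75). The list of 10 B-1 cell genes that holds Bhlhe41 did not move together in members. Of its 9 genes with a UMI, 5 were above and 4 below 0. By 1 log2 unit or more, 2 were higher and 1 lower, beside 3.08% and 2.76% of all genes with a UMI. Gm10076, a long noncoding RNA gene, went from 61.5 CPM (40 cells) to 564 CPM (301 cells), with an interval of the log2 ratio from 2.78 to 3.65, and it was also higher in cells below the limit, from 72.9 to 548 CPM, in T cells, from 71.7 to 809, and in neutrophils, from 26.5 to 360. Exoc4 of the exocyst and Gm42047 had the same direction in all 4 populations. Gm5483, a stefin gene, Ifitm1 and Cxcl2 were higher in neutrophils than in members, with 764, 237 and 348 CPM in D2 neutrophils against 214, 62.9 and 61.3 in D2 members. Without mixed members these D2 levels were 58.1, 48.9 and 36.7 CPM. The ratio of Gm5483 was 2.32 in place of 4.28, and that of Ifitm1 was 3.05 in place of 2.76. Cxcl2 then had no naive UMI left. Gm5483 belongs to a family of near-identical genes, so its reads may be shared. The part of neutrophil RNA in these 3 genes was not tested.

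The 10 lowest were Rrm2, Igll1, Vpreb1, Fosb, Cenpf, H2afx, Mki67, Pclaf, Ccnb2 and Birc5, of which all but Igll1, Vpreb1 and Fosb serve DNA synthesis, the chromatin of dividing cells or mitosis. Of 18 proliferation genes, all were below 0 and the list went from 2763 to 1012 CPM, but 5 naive members held 58.7% of the naive UMIs. Mki67, a marker of cycling cells, had a UMI in 15 naive and 6 D2 members. Igll1 and Vpreb1, the surrogate light chain of pre-B cells, had 109 UMIs, all in 4 naive members, and 1 UMI on D2. Without mixed members the proliferation list went from 2295 to 616 CPM. The neutrophil list (14 genes) summed to 49642 CPM in naive and 66129 in D2 members, with S100a9 and S100a8 the most abundant, and to 3424 and 6600 CPM without mixed members. Its genes did not move together. Of the 14, 3 were higher on D2 by 1 log2 unit or more, beside 3.0% of all genes compared. The 4 lower by as much were the granule genes Elane, Prtn3, Ctsg and Mpo, beside 2.00% of all genes compared. Without mixed members 3 of 11 were higher and 6 lower, beside 2.41% and 1.54%. Elane went from 584 to 4.03 CPM, and 1 cell held 81.7% of its naive UMIs. The erythroid list (8 genes) went from 13325 to 475 CPM with mixed members and from 517 to 270 without them, with Hbb-bs the most abundant. The T and NK list summed to 129 and 79.8 CPM, with 7 and 3 of its 15 genes at 0, and Nkg7, at 54.0 CPM, and Cd3d, at 41.9, the most abundant. Ccl5, a T and NK cell chemokine outside this list, had 65 UMIs in 1 naive cell.

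The 5 cells of D7, of which Scrublet marked 4 as doublets, carried markers of mature B cells and some RNA of precursor genes. Cr2 had 28 UMIs over 4 of the 5 (1283 CPM), Fcmr 24, H2-Aa 111 and Cd74 204. Of the precursor list, Vpreb3 had 7 UMIs and Cd24a 9, and 12 of its 18 genes had none. Cd93 and Ccr7 had none. In naive members without mixed cells Cd93 stood at 68.6 CPM, below the 137 CPM of 3 UMIs on D7, so its 0 was not informative. The p53 list of the 5 cells summed to 16 UMIs of 26 genes, and the neutrophil list to 3299 CPM. With 21827 UMIs in all, 3 UMIs correspond to 137 CPM, so most genes named above were not measurable at this depth.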

How the data were processed

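Whole BM of naive, D2 and D7 CTX mice was analysed, with 47086837, 34764874 and 68459527 UMIs in 7649, 6608 and 8605 barcodes. The authors deposited counts of UMIs per gene and barcode, made with Cell Ranger 3.1 on mm10 per the labels, without normalization, and the strand setting and annotation release are not given in the sources used here. Seurat 5.0, also in the labels, left no values in these files. The members and lists were chosen with earlier results of these data known. UMIs were summed over members and scaled to CPM, and log2 ratios are on the scale of CPM + 5, with exact conditional intervals of the raw counts, so that for low genes the ratio can lie at the edge of its interval. Shares have Clopper-Pearson intervals. Genes were called at 1 log2 unit, which is 2-fold. Named genes are those of the fixed lists on which a result turns and the 10 highest and 10 lowest of each comparison. A T cell gate with Cd3d was planned, but 97.6% of its naive cells held Cd3d and 11.4% Cd3e, so Cd3d was dropped. Loci and promoters were read on GRCm38. Python 3.11.15, numpy 2.4.6, scipy 1.17.1, pandas 2.3.3, scanpy 1.11.5 (Scrublet) and matplotlib 3.10.9 were used, and the comparison of summed counts was tried first on simulated data with known changes. Some genes of the lists count in the list totals and are not reported here by name.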

Additional observations from a re-analysis of the deposited data

How the results depend on the processing

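No value past 1 log2 unit that is given in this section changed sign under the alternatives run, apart from the erythroid list. In the cells below the limit the D2 over naive ratio of Hba-a2, a haemoglobin gene, went from -1.39 to 0.20 without mixed cells. Of the erythroid genes compared in members, all 5 were lower by 1 log2 unit or more, while 1 of 4 lay above 0, at 0.22, without mixed members. Of the values that answer a comparison, 94 stayed within the intervals or 1.5 times the count, and 10 moved. The D2 over naive log2 ratio of the share was 1.19 with cells thinned to 2000 UMIs. The D7 ratio was -7.98 without Scrublet doublets, where 1 cell was left, and -2.57 as a share of Cd79a-positive cells. Genes higher on D2 numbered 64 with ratios centred on their median, and 410 higher and 368 lower passed with every gene that had a UMI. With the mean of the cells' CPM, 39 genes were lower. The MHC class II median was -0.84 with centred ratios and -0.85 with the mean of the cells' CPM. The median of the B cell identity genes, 0.02, lay on the other side of 0 in several alternatives, down to -0.17 with the mean of the cells' CPM. The median of precursor genes in members over cells below the limit in naive BM was -1.79 when members held at least 3 UMIs of Ighd and Fcer2a. Of the other values, 464 stayed and 50 moved. For the moved values the cause was not tested, beyond the larger number of genes compared without the filter and the D7 cells left out by Scrublet. Leaving out mixed members and the split by Ighm, with its limits, were chosen after seeing the data. No paired analysis was possible because each condition had 1 pooled library. The spread between mice is not measured here, a change in share cannot be told apart from a change in other cells, the part of free RNA was not tested, and D7 rests on 5 cells.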
